A study of Glycine max with 18 samples.

Results

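Glutathione S-transferase (GST) genes of soybean were followed in root transcriptomes of 2 cultivars under dehydration, as 28 of the 66195 probes of a soybean Affymetrix array. A probe was a member if its only gene symbol in the platform annotation began with GST (21 probes of 20 genes, called symbol-named), or if the study's gene tables gave its description or best Arabidopsis match as a glutathione S-transferase (10 probes, called table-named). GSTU1, GSTU58 and GSTU62 met both conditions, so that 7 probes were table-named only. Of the 10 table-named probes, 8 were chosen by their measured change, because the tables that name them list genes past 2-fold in a comparison of these same arrays; some tables of downregulated genes were held only in part, so that fewer decreases than increases could be found this way. By class, the symbol-named probes comprised 16 tau, 2 phi, 1 lambda and 1 zeta GST and GSTIR, whose class no source gives, and the table-named probes comprised 9 tau GSTs and 1 lambda GST.

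GSTs join the tripeptide glutathione, or in soybean also homoglutathione, to reactive and toxic compounds, and transporters of the ABCC type then carry many of the conjugates into the vacuole. The tau and phi classes are found in plants and hold most of the enzymes that act on herbicides and on products of lipid oxidation, and tau genes often stand in tandem on a chromosome. Lambda GSTs act rather as reductases that use glutathione, and zeta GSTs take part in tyrosine breakdown. Glutathione is also spent by peroxidases and by the ascorbate cycle, and glutathione reductase restores it.

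The 6 groups were well-watered roots (0 h) and roots dehydrated for 2 and 10 h of DT2008 (DT-C, DT-D2 and DT-D10), a cultivar described as drought-tolerant, and the same of W82 (W-C, W-D2 and W-D10), the more sensitive cultivar whose genome was sequenced. Each group had 3 biological replicates on 3 arrays, 18 in all. All plants were 14 days old, were grown watered in vermiculite, and were dried whole on paper. By the paper's methods, drying took place in a cooler room and dimmer light than growth. No group was held watered for 2 or 10 h, so time since removal from the pot, this change of conditions and dehydration cannot be told apart. By the paper's account, the shoots of W82 held less water than those of DT2008 at 2 h and at 10 h. In the dehydrated groups, cultivar and degree of water loss therefore cannot be told apart. The deposited values are log2 intensities centred on each probe's median over the 18 arrays: a value of 0 is a probe's own median, and no probe's abundance can be set against another's. Bulk root RNA cannot distinguish fewer cells of a type from less RNA per cell. A probe was called if it moved by 2-fold or more and had an adjusted p below 0.05 in a limma fit over all probes; a change in DT2008 or W82 at 2 or 10 h is always that cultivar's dehydrated group over its own control. Within groups, the correlation between arrays across probes was between 0.37 and 0.72, and the SD of a member among the 3 arrays of a group had a median of 0.22 and reached 0.87 (GSTL3 in DT-C).

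Most symbol-named GSTs stayed under 2-fold after dehydration. GSTU58 rose in both cultivars and GSTU62 in W82 at 10 h, GSTU41 rose in W82 and GSTU13 and GSTU38 in DT2008 at 2 h, and GSTU60 fell in DT2008 at 2 h. For comparison, 2.89% of all probes rose and 1.19% fell in DT2008 at 2 h and 2.75% rose and 1.71% fell at 10 h, while 1.83% rose and 0.884% fell in W82 at 2 h and 3.49% rose and 1.66% fell at 10 h. Of the 21 symbol-named GST probes, 2 rose and 1 fell in DT2008 at 2 h, and 1 rose at 10 h. In W82, 2 rose at 2 h and 2 rose at 10 h. The median change of the symbol-named probes was 0.08 at 2 h and -0.08 at 10 h in DT2008, and 0.25 at 2 h and 0.37 at 10 h in W82, on the log2 scale, where the median of all probes lay between -0.03 and -0.02 in these 4 comparisons. Signs were uneven in W82 at 10 h, with 18 of 21 changes above 0, against 8 of 21 in DT2008 at 10 h. No symbol-named probe fell by 2-fold or more in DT2008 at 10 h or in W82 at either time. In limma, GSTIR (-0.72) and GSTU28 (-0.65) passed the adjusted p in DT2008 at 10 h with falls under 2-fold, and 5 had a negative change at an unadjusted p below 0.05 in DT2008 at 10 h, 2 in W82 at 2 h and 1 in W82 at 10 h. Counts at an unadjusted p, here and below, lack the share of all probes, which was not computed. GSTU41 enters every count of symbol-named probes with 2 probes. GSTIR, which no source used here describes as a transferase, was called in none of these comparisons, so the counts of calls are the same over the other 20.

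**Figure D1:**
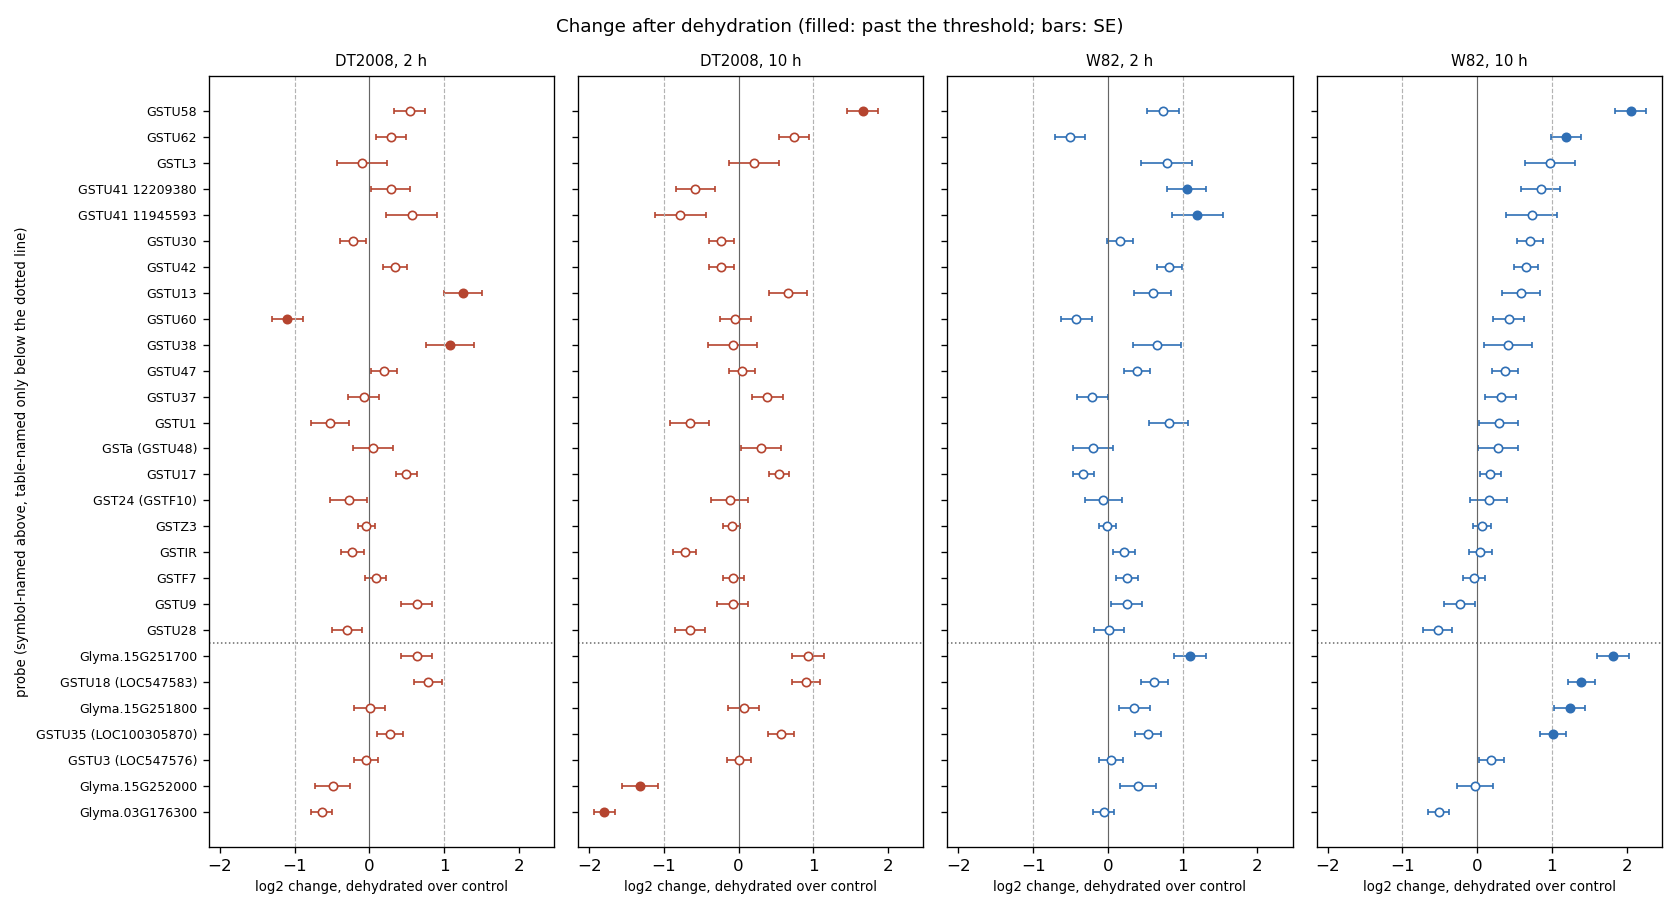
Log2 change after dehydration (x axis, dehydrated over well-watered control, with the standard error as bars) for the 28 GST probes (y axis, ordered within each set by the change in W82 at 10 h), in DT2008 and W82 at 2 and 10 h; filled points passed the threshold and dashed lines mark 2-fold. GSTU58 is the symbol-named probe filled at 10 h in both cultivars, and the table-named probes filled in W82 at 10 h were chosen on that comparison.

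GSTU58, a tau GST, rose in both cultivars at 10 h. In DT2008 its centred log2 values were -0.35, -1.00 and -0.59 in DT-C, 0.15, -0.15 and -0.32 in DT-D2, and 1.07, 1.30 and 0.67 in DT-D10. In W82 they were -0.77, -0.63 and -0.80 in W-C, 0.16, 0.17 and -0.30 in W-D2, and 1.73, 1.08 and 1.16 in W-D10. In each cultivar the 10 h arrays lay above all the others and the 2 h arrays lay between control and 10 h without overlap. The change was 1.66 ± 0.21 in DT2008 at 10 h (SE, 3.16-fold, adjusted p = 2.38e-05) and 2.05 ± 0.21 in W82 (4.15-fold, adjusted p = 1.67e-06), the second being the comparison in which the study's tables list the gene. At 2 h the changes were smaller than 2-fold, 0.54 ± 0.21 in DT2008 (adjusted p = 0.114) and 0.74 ± 0.21 in W82 (adjusted p = 0.0368). The interaction, the DT2008 change minus the W82 change, was not called for GSTU58 at either time.

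GSTU62, also of the tau class, rose past 2-fold in W82 at 10 h. In DT2008 its values were -0.26, -0.37 and 0.19 in DT-C, -0.19, 0.36 and 0.25 in DT-D2, and 0.40, 1.10 and 0.27 in DT-D10, and DT-D2 overlapped both other groups. In W82 they were -0.50, -0.55 and -0.50 in W-C, -1.13, -1.14 and -0.80 in W-D2, and 0.79, 0.63 and 0.58 in W-D10. The 3 W82 groups did not overlap: the 2 h arrays were the lowest and the 10 h arrays the highest. The change was 0.74 ± 0.20 in DT2008 at 10 h (SE, 1.67-fold, adjusted p = 0.0191, under 2-fold) and 1.19 ± 0.20 in W82 at 10 h (2.28-fold, adjusted p = 4.08e-04). The study's tables list GSTU62 for W82 at 10 h from these same arrays, so the listing is not a separate observation. In W82 at 2 h it was -0.51 ± 0.20 (adjusted p = 0.151). All DT-D2 arrays lay above all W-D2 arrays, and GSTU62 was 1.16 ± 0.20 higher in DT-D2/W-D2 (2.24-fold, adjusted p = 7.63e-04), and the interaction at 2 h, 0.80 ± 0.29, did not pass (adjusted p = 0.263).

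GSTU41, a tau GST with 2 probes, rose at 2 h in W82 on both. In DT2008 the 2 probes of GSTU41 had 0.13, -0.03 and 1.42 and 0.11, -0.35 and 0.76 in DT-C, 1.17, 1.00 and 1.04 and 0.54, 0.37 and 0.47 in DT-D2, and -0.24, -0.53 and -0.07 and -0.53, -0.38 and -0.31 in DT-D10. Replicate 3 of DT-C was the highest control array on both. The changes did not pass the test in DT2008 at either time, being -0.78 ± 0.34 (adjusted p = 0.16) and -0.58 ± 0.26 (adjusted p = 0.169) at 10 h.

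In W82 probe 11945593 had -1.08, -0.55 and -0.33 in W-C, 1.19, -0.31 and 0.75 in W-D2, and 0.29, -0.09 and 0.03 in W-D10. Probe 12209380 had -1.06, -0.49 and -0.60 in W-C, 0.78, -0.28 and 0.51 in W-D2, and 0.37, 0.14 and -0.11 in W-D10. On both probes replicate 2 of W-D2 lay far below the other two and just above the highest control array. The change in W82 at 2 h was 1.20 ± 0.34 (SE, 2.29-fold, adjusted p = 0.0384) and 1.05 ± 0.26 (2.07-fold, adjusted p = 0.0164). Leaving out replicate 1 of W-C, or replicate 1 or 3 of W-D2, ended the call of either probe, and leaving out replicate 2 of W-C ended that of 11945593, with changes between 0.87 and 1.62 for 11945593 and between 0.83 and 1.36 for 12209380 over all arrays left out in turn. The interaction at 10 h was -1.51 ± 0.49 (adjusted p = 0.194) and -1.43 ± 0.37 (adjusted p = 0.1) and was not called.

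GSTU13, GSTU38 and GSTU60, all tau GSTs, were called at 2 h in DT2008. GSTU13 had -0.92, -1.38 and -0.29 in DT-C, 0.43, 0.55 and 0.18 in DT-D2, and -0.09, -0.46 and -0.07 in DT-D10. All DT-D2 arrays were above all DT-C arrays, and GSTU13 rose by 1.25 ± 0.25 in DT2008 at 2 h (SE, 2.38-fold, adjusted p = 0.00256). Without replicate 2 of DT-C, the lowest array, the change was 0.99 and under 2-fold. In W82 its change at 2 h was 0.60 ± 0.25 (adjusted p = 0.18), and the interaction at 2 h, 0.65 ± 0.36, did not pass (adjusted p = 0.509).

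GSTU38 had -0.50, -0.51 and 0.58 in DT-C, 0.39, 1.25 and 1.16 in DT-D2, and -0.41, -0.43 and 0.17 in DT-D10. Replicate 3 of DT-C lay within the range of DT-D2, so the groups overlapped, and the change in DT2008 at 2 h was 1.07 ± 0.32 (SE, 2.1-fold, adjusted p = 0.0351). The call was lost without replicate 1 or 2 of DT-C or replicate 2 or 3 of DT-D2, and also when only the arrays compared were fitted (limma, adjusted p = 0.0757), under quantile normalization (adjusted p = 0.0671) and by the methods' t-test, with adjusted p between 0.00631 and 0.349 over all alternatives. GSTU60 had 0.00, 0.10 and 0.40 in DT-C, -0.36, -1.09 and -1.34 in DT-D2, and 0.19, -0.12 and 0.28 in DT-D10. It was low in the 2 h arrays and back within the control range of values in 2 of the 3 arrays at 10 h: the change was -1.10 ± 0.21 in DT2008 at 2 h (2.14-fold lower, adjusted p = 0.00148) and -0.05 ± 0.21 in DT2008 at 10 h. Leaving out replicate 3 of DT-C or of DT-D2 brought the fall of GSTU60 under 2-fold, to -0.89 at the least. GSTU60 in W82 had -0.42 ± 0.21 at 2 h (adjusted p = 0.264) and 0.42 ± 0.21 at 10 h (adjusted p = 0.198).

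**Figure D2:**
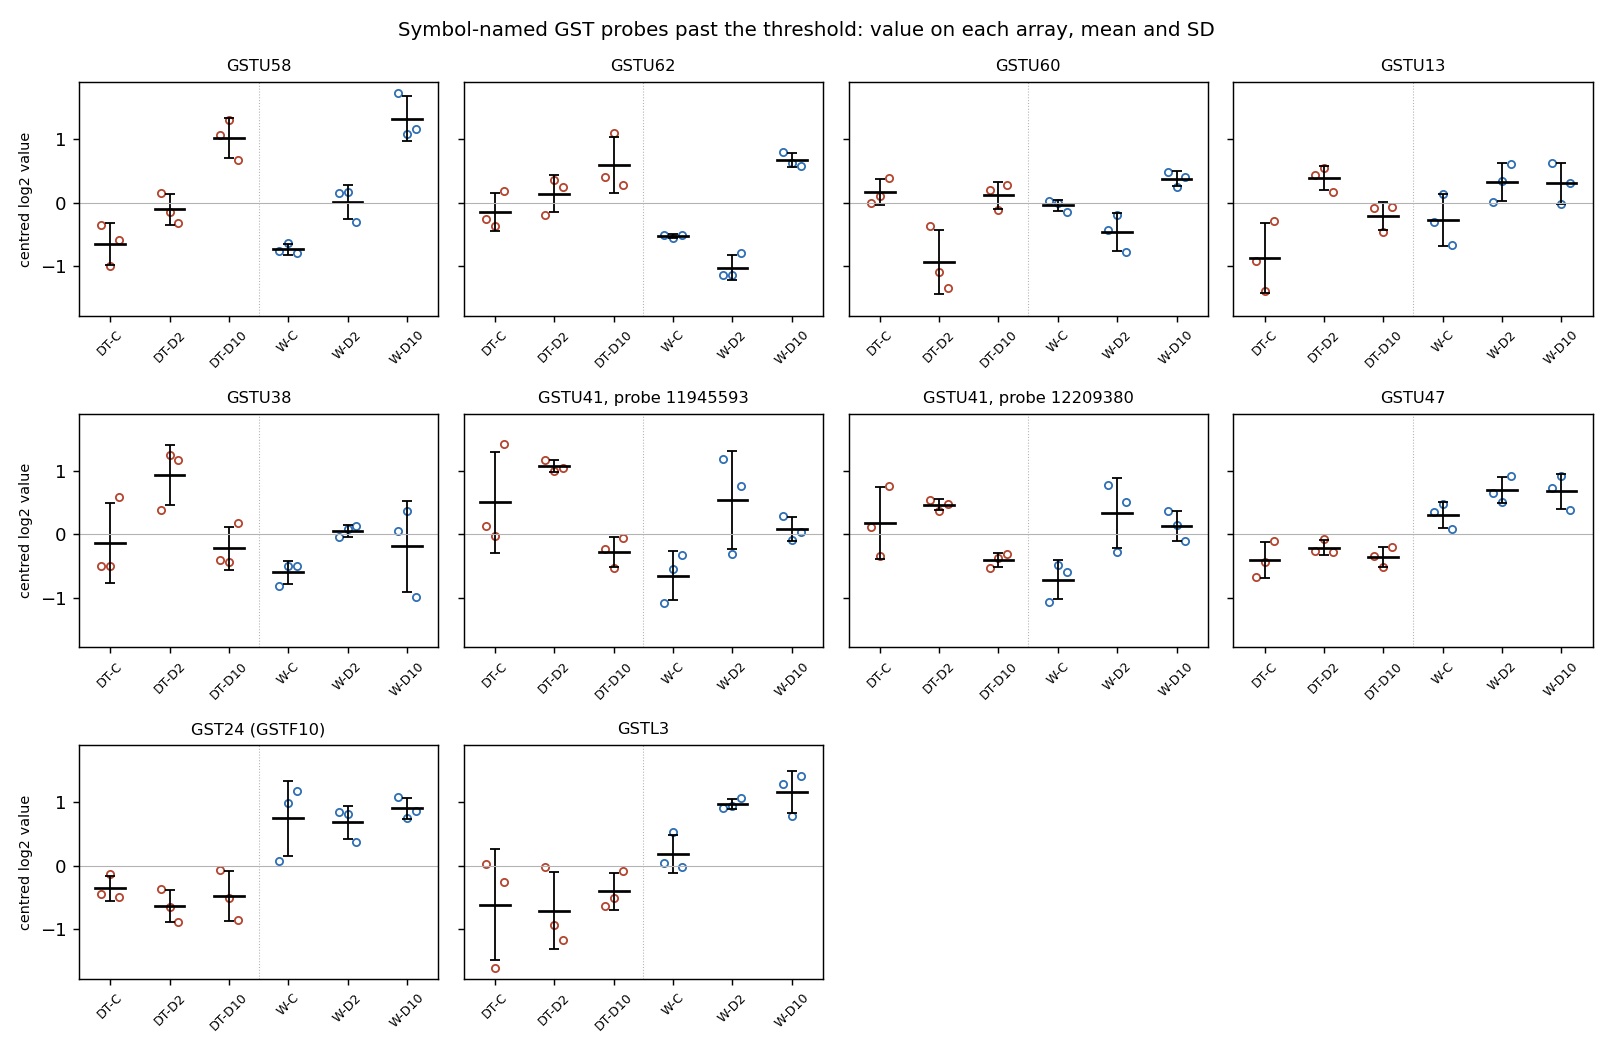
Centred log2 value (y axis) of the 10 symbol-named GST probes called in at least 1 comparison, by group (x axis: DT2008 at 0, 2 and 10 h, then W82 at 0, 2 and 10 h). Circles are single arrays, horizontal lines the mean of 3 arrays and bars the SD; GST24 and GSTL3 lie lower in DT2008 than in W82 in their 2 h and 10 h groups, and the W-D2 values of both GSTU41 probes are spread widely.

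Between cultivars, 1.44% of all probes were higher and 2.07% lower in DT2008 at 0 h (DT-C/W-C), 1.65% and 2.56% at 2 h (DT-D2/W-D2), and 0.523% and 1.2% at 10 h (DT-D10/W-D10). Of the 21 symbol-named GST probes, 1 was higher and 1 lower at 0 h, 1 was higher and 2 were lower at 2 h, and 3 were lower and none higher at 10 h. No symbol-named probe had a positive difference at an unadjusted p below 0.05 at 10 h, where 7 had a negative one, and 17 of the 21 differences were below 0. The share of all probes at that p was not computed, and calls over all probes were also more often lower than higher at 10 h. The median difference of the symbol-named probes was 0.20, -0.03 and -0.33 at 0, 2 and 10 h, against 0.01, 0.03 and 0.02 for all probes. The probes lower in DT2008 were GST24, GSTL3 and GSTU47. By the paper's account the array design drew on soybean genome sequences, and W82 is the sequenced cultivar. Whether RNA of DT2008 and W82 binds a probe equally well was not tested. The part of the unequal water loss at 2 and 10 h was not tested either.

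GST24, a phi GST with the RefSeq synonym GSTF10, was lower in DT2008 at every time. It had -0.44, -0.13 and -0.49 in DT-C and 0.07, 0.99 and 1.17 in W-C, -0.37, -0.66 and -0.88 in DT-D2 and 0.85, 0.82 and 0.38 in W-D2, and -0.07, -0.50 and -0.85 in DT-D10 and 1.09, 0.75 and 0.87 in W-D10. The cultivars did not overlap at any time, and replicate 1 of W-C was the W82 array nearest to DT2008. The difference was -1.10 ± 0.25 at 0 h (SE, 2.14-fold, adjusted p = 0.00636), -1.32 ± 0.25 at 2 h (2.49-fold, adjusted p = 0.00146) and -1.38 ± 0.25 at 10 h (2.6-fold, adjusted p = 0.00217). Without replicate 2 or 3 of W-C the 0 h difference was under 2-fold, the smallest being -0.88. Dehydration did not move GST24 past the threshold in either cultivar, with changes between -0.28 and 0.16.

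GSTL3, a lambda GST, was lower in DT2008 after dehydration. It had -0.03, -0.94 and -1.17 in DT-D2 and 0.91, 0.94 and 1.06 in W-D2, and -0.63, -0.51 and -0.08 in DT-D10 and 1.28, 0.79 and 1.42 in W-D10, with no overlap at 2 or 10 h. At 0 h the values were 0.02, -1.61 and -0.25 in DT-C and 0.05, 0.53 and -0.02 in W-C, and these ranges overlapped. The difference was -0.80 ± 0.34 at 0 h (SE, adjusted p = 0.148), -1.68 ± 0.34 at 2 h (3.21-fold, adjusted p = 0.00238) and -1.57 ± 0.34 at 10 h (2.96-fold, adjusted p = 0.00922). In W82 its change of 0.98 ± 0.34 at 10 h did not pass (adjusted p = 0.0575), and the interaction at 2 h, -0.89 ± 0.48, was not called (adjusted p = 0.5).

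GSTU47, a tau GST whose gene is next to GSTa (RefSeq synonym GSTU48) in the RefSeq order of chromosome 15, was lower in DT2008 at all 3 times and past 2-fold at 10 h. It had -0.67, -0.44 and -0.10 in DT-C and 0.35, 0.48 and 0.08 in W-C, -0.27, -0.08 and -0.29 in DT-D2 and 0.65, 0.51 and 0.91 in W-D2, and -0.34, -0.52 and -0.21 in DT-D10 and 0.73, 0.91 and 0.38 in W-D10. Every DT2008 array lay below every W82 array. The difference was -0.71 ± 0.17 at 0 h (SE, adjusted p = 0.0117), -0.90 ± 0.17 at 2 h (adjusted p = 0.00177) and -1.03 ± 0.17 at 10 h (2.04-fold, adjusted p = 0.0013), the last falling under 2-fold without replicate 1 or 2 of W-D10 or replicate 2 of DT-D10. Neighbouring GSTa was called in no comparison.

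The symbol-named probe higher in DT2008 at 0 h was GSTU41 (11945593), with 1.16 ± 0.34 in DT-C/W-C (SE, 2.23-fold, adjusted p = 0.0341). Its second probe differed by 0.89 ± 0.26 (1.86-fold, adjusted p = 0.0316), under 2-fold. The call of 11945593 was lost without replicate 1 or 2 of W-C or replicate 3 of DT-C, where the difference was as low as 0.70. Neither probe was called between cultivars at 2 or 10 h.

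**Figure D3:**
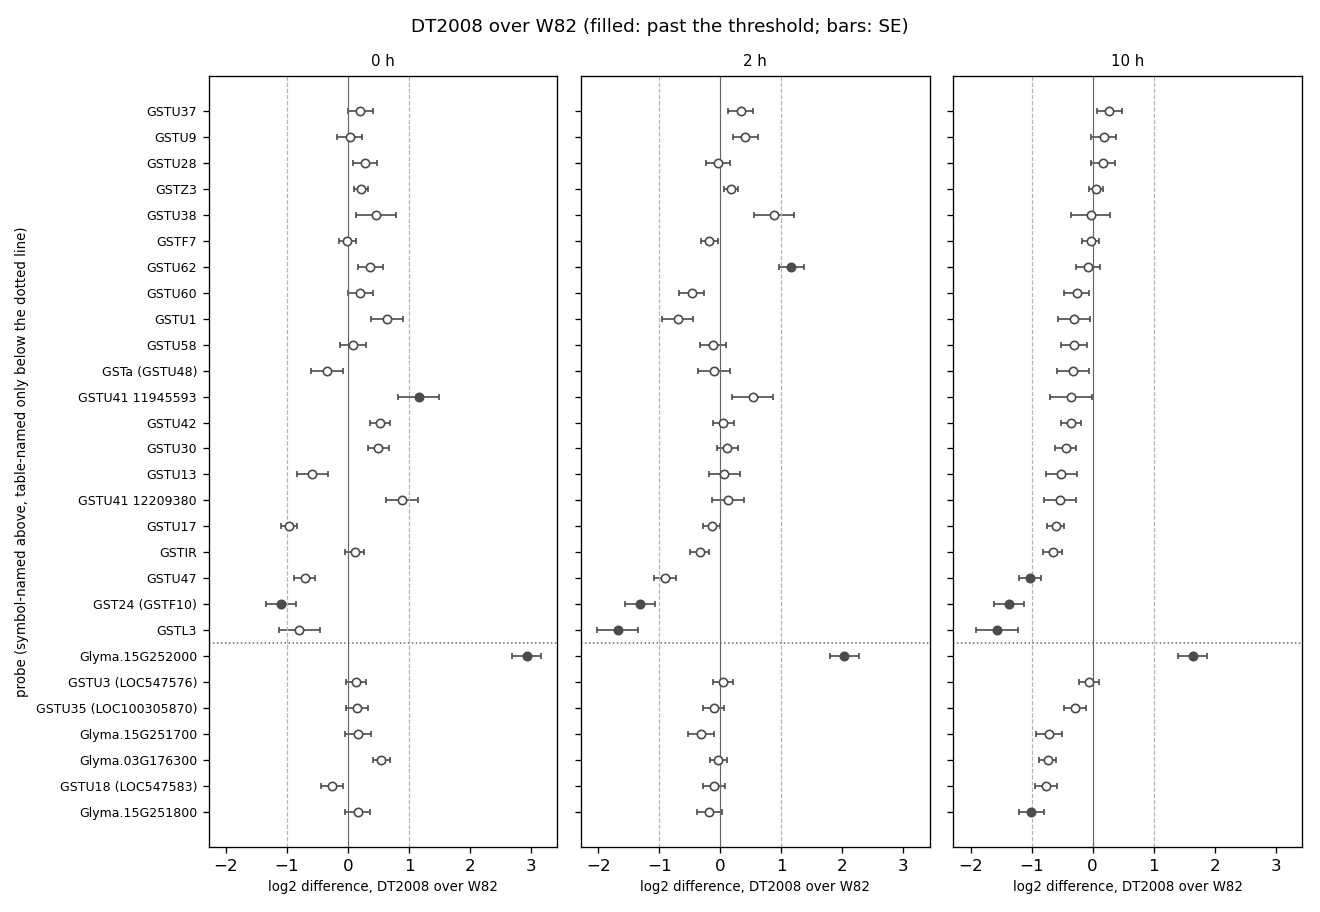
Log2 difference of DT2008 over W82 (x axis, with the standard error as bars) for the 28 GST probes (y axis, ordered within each set by the 10 h difference) at 0, 2 and 10 h; filled points passed the threshold and dashed lines mark 2-fold. GST24 is filled on the negative side at all 3 times and Glyma.15G252000 on the positive side at all 3, its 2 h value being the one that put it in the study's tables.

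The remaining 11 symbol-named probes (GSTU1, GSTU9, GSTU17, GSTU28, GSTU30, GSTU37, GSTU42, GSTa, GSTF7, GSTZ3 and GSTIR) were called in no comparison. Their dehydration changes lay between -0.72 (GSTIR in DT2008 at 10 h) and 0.82 (GSTU42 in W82 at 2 h), and their cultivar differences between -0.96 and 0.64, both at 0 h. Some passed the adjusted p without reaching 2-fold: 1 at 2 h and 3 at 10 h in DT2008, 1 at 2 h and 2 at 10 h in W82, 2 in DT-C/W-C and 2 in DT-D10/W-D10. GSTU42 was at -0.77, -0.44 and -0.35 in W-C, 0.38, 0.04 and 0.47 in W-D2, and 0.31, 0.21 and -0.12 in W-D10, with both dehydrated groups above control. Its change was 0.82 ± 0.17 at 2 h (SE, adjusted p = 0.00376) and 0.65 ± 0.17 at 10 h (adjusted p = 0.0102). GSTIR was lower in DT-D10, at -0.65, -0.70 and -0.49, than in DT-C, at 0.14, -0.06 and 0.23, a change of -0.72 ± 0.15 (adjusted p = 0.0032). GSTZ3, the zeta member, had changes and differences under 0.25 in size in the 7 comparisons.

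GSTU17 was the uncalled member with the largest cultivar difference at 0 h. It had -0.86, -0.61 and -0.37 in DT-C and 0.45, 0.18 and 0.42 in W-C, with no overlap, and the difference was -0.96 ± 0.14 (SE, 1.95-fold, adjusted p = 1.14e-04). In DT2008 it changed by 0.50 ± 0.14 at 2 h (adjusted p = 0.0219) and 0.54 ± 0.14 at 10 h (adjusted p = 0.0117), and in W82 by -0.33 ± 0.14 at 2 h (adjusted p = 0.17) and 0.18 ± 0.14 at 10 h. At 10 h the cultivars still differed, by -0.60 ± 0.14 (adjusted p = 0.0133), with no overlap between -0.15, -0.11 and 0.03 in DT-D10 and 0.44, 0.59 and 0.56 in W-D10.

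The interaction asks whether the dehydration change differed between DT2008 and W82, whose plants had not lost water equally at equal times. At 2 h 0.287% of all probes had a larger and 0.133% a smaller value in DT2008 past the threshold, and at 10 h 0.156% and 0.239%. None of the 21 symbol-named probes was called at either time in limma, while 4 at 2 h and 6 at 10 h had an unadjusted p below 0.05. Of the 4 at 2 h, 2 were positive and 2 negative, and all 6 at 10 h were negative. The interaction of GSTU17 at 2 h was positive, at 0.83 ± 0.19 (SE, limma, adjusted p = 0.0682). At 10 h 16 of the 21 values were below 0, with a median of -0.39 against 0.00 over all probes. The negative interactions with an unadjusted p below 0.05 at 10 h were those of GSTU41 (both probes), GSTU42 at -0.89 ± 0.23 (SE, adjusted p = 0.109), GSTU30 at -0.94 ± 0.24 (adjusted p = 0.1), GSTU1 at -0.94 ± 0.36 (adjusted p = 0.304) and GSTIR at -0.76 ± 0.22 (adjusted p = 0.137). GSTU1 at 2 h had -1.34 ± 0.36 (adjusted p = 0.122), its DT-D2 arrays being at -0.09, 0.24 and -0.20 and its W-D2 arrays at -0.10, 1.30 and 0.84. These interactions are computed from the same arrays, dehydrated and control, as the dehydration changes and cultivar differences above. Their signs are therefore not separate from the signs given there.

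Of the 7 probes named only by the gene tables, 4 were chosen by an increase in W82 at 10 h, namely Glyma.15G251700, Glyma.15G251800, LOC547583 and LOC100305870. LOC547583 and LOC100305870 have the RefSeq synonyms GSTU18 and GSTU35. Their changes in W82 at 10 h, which are a description of how they were chosen, were 1.81, 1.24, 1.39 and 1.01 on the log2 scale, the last (2.02-fold) lying just inside the study's limit of 2-fold. Tests are given below only in comparisons that share no array with the one that chose a probe.

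Glyma.15G251700, a tau GST, had -0.53, -1.07 and -0.44 in DT-C, -0.06, 0.19 and -0.28 in DT-D2, and 0.06, 0.62 and 0.08 in DT-D10. Both dehydrated groups lay above control, and the change was 0.63 ± 0.21 at 2 h (SE, adjusted p = 0.0624) and 0.93 ± 0.21 at 10 h in DT2008 (1.91-fold, adjusted p = 0.0057). In W82 the values were -0.98, -0.72 and -0.81 in W-C, 0.62, -0.06 and 0.23 in W-D2, and 1.25, 0.98 and 0.70 in W-D10, the 3 groups being apart. The change of 1.10 in W82 at 2 h shares its control arrays with the comparison that chose the probe.

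Glyma.15G251800 carries the next locus number after Glyma.15G251700. It had -0.19, -0.10 and 0.29 in DT-C, -0.07, -0.17 and 0.26 in DT-D2, and 0.15, 0.08 and -0.02 in DT-D10, and the 3 groups overlapped. The change was 0.01 ± 0.21 at 2 h (SE, adjusted p = 0.989) and 0.07 ± 0.21 at 10 h in DT2008 (adjusted p = 0.892). In W82 it had -0.10, -0.15 and -0.24 in W-C, -0.24, 0.02 and 0.77 in W-D2, and 1.28, 1.04 and 0.89 in W-D10, the 10 h arrays being above all others. The W-D10 arrays that chose it also enter DT-D10/W-D10, where the difference was -1.00.

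GSTU18 (LOC547583), a tau GST matched to GSTU7 of Arabidopsis, had -0.52, -1.00 and -0.65 in DT-C, 0.22, 0.12 and -0.16 in DT-D2, and -0.02, 0.35 and 0.20 in DT-D10. Dehydrated and control arrays did not overlap, and it rose by 0.79 ± 0.18 at 2 h (SE, 1.72-fold, adjusted p = 0.00683) and 0.90 ± 0.18 at 10 h in DT2008 (1.87-fold, adjusted p = 0.00204), both under 2-fold. In W82 the values were -0.51, -0.44 and -0.43 in W-C, 0.02, -0.07 and 0.54 in W-D2, and 1.22, 0.81 and 0.78 in W-D10. Its neighbour on chromosome 5 in the RefSeq order is GSTU17, described above. The cultivar difference of GSTU18 at 2 h was -0.10 ± 0.18 (adjusted p = 0.788).

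GSTU35 (LOC100305870), also matched to GSTU7 of Arabidopsis, had -0.28, -0.11 and -0.63 in DT-C, 0.31, -0.24 and -0.28 in DT-D2, and 0.34, 0.11 and 0.23 in DT-D10. The DT-D2 arrays overlapped control and the DT-D10 arrays did not. The change was 0.27 ± 0.18 at 2 h (SE, adjusted p = 0.39) and 0.57 ± 0.18 at 10 h in DT2008 (1.49-fold, adjusted p = 0.0379). In W82 it had -0.39, -0.73 and -0.36 in W-C, -0.19, 0.18 and 0.13 in W-D2, and 0.43, 0.59 and 0.54 in W-D10.

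Glyma.15G252000, a tau GST matched to GSTU19 of Arabidopsis, was chosen by its higher value in DT-D2/W-D2, and its arrays at 0 and 10 h were not part of that choice. It had 2.09, 1.43 and 2.73 in DT-C and -0.71, -1.03 and -0.80 in W-C. At 2 h it had 1.83, 1.40 and 1.54 in DT-D2 and -0.39, -0.48 and -0.45 in W-D2, and at 10 h 0.39, 0.81 and 1.08 in DT-D10 and -0.87, -1.07 and -0.70 in W-D10. Every DT2008 array lay above every W82 array. The difference was 2.93 ± 0.24 at 0 h (SE, 7.62-fold, adjusted p = 2.11e-07) and 1.64 ± 0.24 at 10 h (3.12-fold, adjusted p = 3.15e-04), and 2.03 at 2 h. In DT2008 it fell by 1.32 ± 0.24 on the log2 scale at 10 h (2.51-fold, adjusted p = 8.64e-04), with no overlap between DT-D10 and DT-C, whereas in W82 the change at 10 h was -0.04 ± 0.24.

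Glyma.03G176300, a lambda GST matched to GSTL3 of Arabidopsis, was chosen by its decrease in DT2008 at 10 h, where the change was -1.80. It had 0.85, 0.47 and 0.66 in DT-C, 0.02, 0.08 and -0.02 in DT-D2, and -1.20, -1.13 and -1.09 in DT-D10, and the 3 groups did not overlap. In W82 it had -0.11, 0.07 and 0.38 in W-C, -0.08, 0.07 and 0.18 in W-D2, and -0.44, -0.46 and -0.31 in W-D10. The W-D10 arrays lay below all W-C arrays, with a change of -0.52 ± 0.14 (SE, 1.43-fold, adjusted p = 0.0159), under 2-fold. At 2 h it changed by -0.06 ± 0.14 in W82 (adjusted p = 0.883), and it differed by -0.03 ± 0.14 in DT-D2/W-D2 (adjusted p = 0.923).

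LOC547576, with the RefSeq synonym GSTU3 and next to GSTU1 on chromosome 1 in its order of protein-coding genes, is named by the study's table of all genes and was not chosen by a measured change. Its group means lay between -0.05 in W-C and 0.14 in W-D10, and it was called in no comparison.

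**Figure D4:**
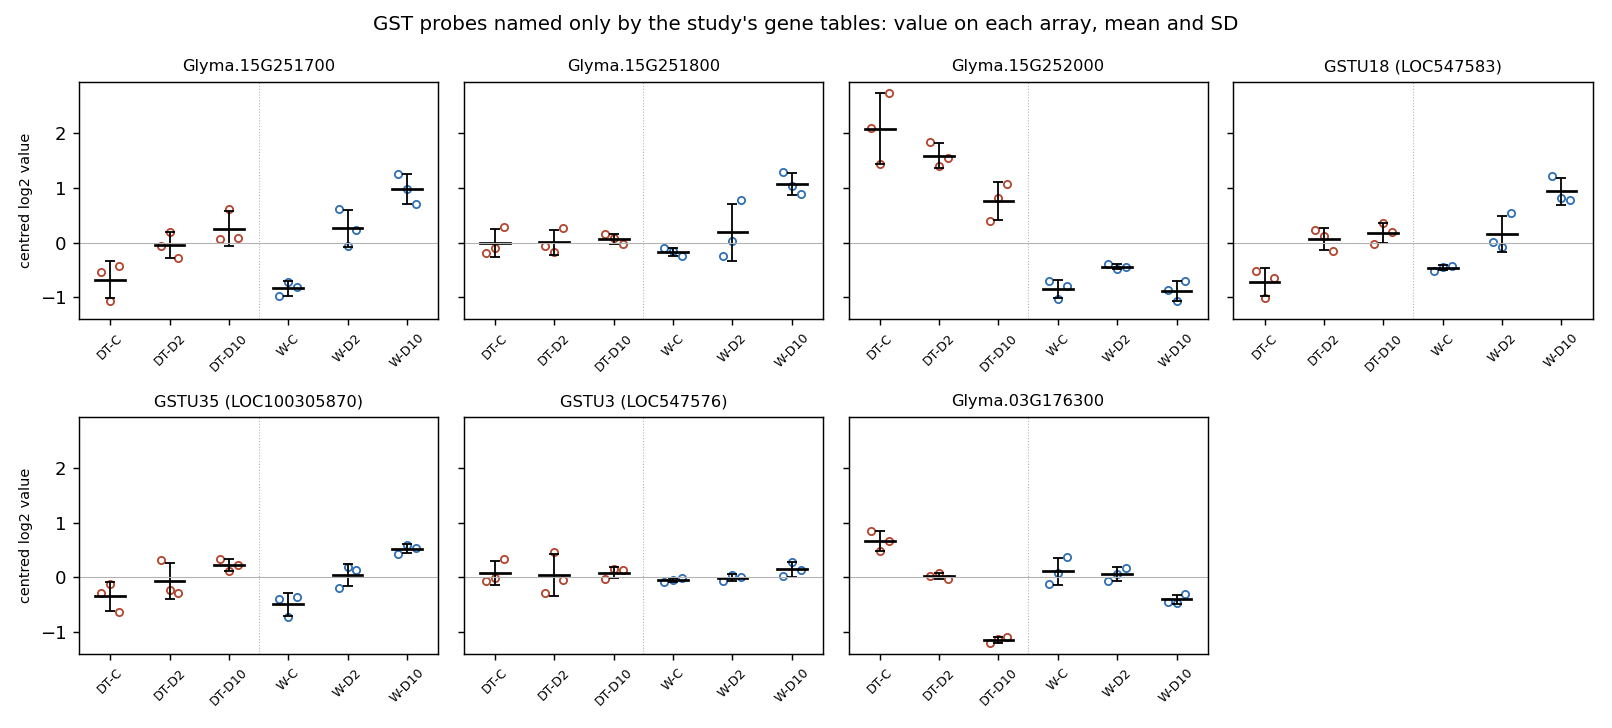
Centred log2 value (y axis) of the 7 GST probes named only by the gene tables, by group (x axis: DT2008 at 0, 2 and 10 h, then W82 at 0, 2 and 10 h). Circles are single arrays, horizontal lines the mean of 3 arrays and bars the SD; all DT2008 arrays of Glyma.15G252000 lie above all its W82 arrays, and the W-D10 arrays of Glyma.15G251800, which chose it, lie above its other arrays.

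Several members stand beside each other in the RefSeq order of protein-coding genes, and none of the pairs named here shared a call. On chromosome 8, GSTU38 and GSTU41 are adjacent, and 1 coding gene lies between GSTU37 and GSTU38. GSTU37 was called in no comparison, GSTU38 rose in DT2008 at 2 h and GSTU41 in W82 at 2 h. In the other cultivar at 2 h the changes were also positive but not called. They were 0.65 ± 0.32 for GSTU38 in W82 (SE, adjusted p = 0.264). For the 2 probes of GSTU41 in DT2008 they were 0.57 ± 0.34 (adjusted p = 0.352) and 0.29 ± 0.26 (adjusted p = 0.58). The interaction at 2 h was not called for GSTU38 or GSTU41. GSTU58 and GSTU60 lie on chromosome 18 with 7 coding genes between them, and GSTU58 rose at 10 h in both cultivars while GSTU60 fell in DT2008 at 2 h. GSTU28 and GSTU30, adjacent on chromosome 7, had -0.53 ± 0.20 (SE, adjusted p = 0.0791) and 0.71 ± 0.17 (adjusted p = 0.0073) in W82 at 10 h.

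Genes listed by symbol or description under the supply, recycling, use or transport of glutathione were measured by 10 probes. In limma no probe of these was called at 2 h in either cultivar (2 in each at an unadjusted p below 0.05), 1 was upregulated at 10 h in DT2008 and 2 in W82, and none was downregulated. Over all probes 2.75% rose in DT2008 and 3.49% in W82 at 10 h. The 2 called in W82 were in the list because the study's tables name them for that increase, so their count there is a description. Decreases could be missed, since some tables of downregulated genes were held only in part. The median change of the 10 probes at 10 h was 0.02 in DT2008 and 0.01 in W82. Glyma.13G127500, matched to the transporter ABCC5 of Arabidopsis, rose by 1.34 ± 0.18 in DT2008 at 10 h (SE, 2.54-fold, adjusted p = 4.67e-05), and its rise of 1.24 in W82 at 10 h is the one that listed it in the study's tables. It was included by its description as a multidrug resistance-associated protein, and whether it carries glutathione conjugates was not tested. Glyma.01G219400, matched to the glutathione peroxidase GPX6, rose by 0.82 ± 0.25 in DT2008 at 10 h (1.77-fold, adjusted p = 0.0365), under 2-fold, and it too was listed for W82 at 10 h, where its change was 1.14. HGS, which makes homoglutathione, and GR, glutathione reductase, had changes between -0.21 and 0.11 in the 4 dehydration comparisons.

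In the ascorbate cycle, 5 probes were measured and none was called. APX2, an ascorbate peroxidase that removes hydrogen peroxide, fell by 0.57 ± 0.15 on the log2 scale in DT2008 at 2 h (SE, adjusted p = 0.0184), and 1 probe of DHAR4, a dehydroascorbate reductase that uses glutathione, fell by 0.80 ± 0.18 (adjusted p = 0.00558), both under 2-fold. The other DHAR4 probe had 0.07 ± 0.12 in that comparison (adjusted p = 0.827). APX2 differed by -0.77 ± 0.15 (adjusted p = 0.00235) and the first DHAR4 probe by -0.90 ± 0.18 (adjusted p = 0.00225) in DT-D2/W-D2, where LOC100500084 also passed the adjusted p (-0.68 ± 0.19, adjusted p = 0.024). At 0 h, in DT-C/W-C, APX2 already differed by -0.58 ± 0.15 (adjusted p = 0.0169) and the first DHAR4 probe by -0.55 ± 0.18 (adjusted p = 0.0533). Glyma.01G005200, matched to the gamma-glutamyl transpeptidase GGT4, which cleaves glutathione conjugates, was not called.

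Markers of other tissues moved with some of these groups. Of 2 photosynthesis genes of the shoot, PSAD was higher in DT2008 at 0, 2 and 10 h (0.99 ± 0.22, 0.85 ± 0.22 and 0.89 ± 0.22, SE, each under 2-fold with adjusted p = 0.00607, 0.0151 and 0.0237). CAB3 did not pass between the cultivars at these times (0.34 ± 0.21, 0.29 ± 0.21 and -0.05 ± 0.21, limma, adjusted p = 0.367, 0.426 and 0.947). It fell by 0.90 ± 0.21 in DT2008 at 10 h (under 2-fold, adjusted p = 0.00678). The summed centred value of PSAD and CAB3 ran between 0.67 and 1.15 over the DT-C arrays and between -0.79 and -0.01 over the W-C arrays. It ran between 0.56 and 1.42 over DT-D2 and between -0.59 and 0.11 over W-D2, and between -0.59 and -0.28 over DT-D10 and between -1.82 and -0.43 over W-D10. The summed shoot value did not overlap between the cultivars at 0 and 2 h, DT2008 being above W82, and overlapped at 10 h. Of 4 nodule genes, ENOD93 was lower in DT-C/W-C by 1.80 on the log2 scale, fell in W82 at 2 h and 10 h (-1.71 ± 0.25 and -2.49 ± 0.25, adjusted p = 1.89e-04 and 1.13e-06), and had -0.61 ± 0.25 and -0.54 ± 0.25 in DT2008 at the same times, while ENOD40B was higher in DT-C/W-C (1.04 ± 0.33, adjusted p = 0.049). NOD33 was higher in DT-C/W-C (0.49 ± 0.13, adjusted p = 0.0182) and in DT-D2/W-D2 (0.42 ± 0.13, adjusted p = 0.0385), under 2-fold. ENOD93 was the 1 nodule gene of the 4 called in W82, the changes of the other 3 lying between 0.02 and 0.23 at 10 h and between -0.23 and 0.22 at 2 h. The summed value of the 4 nodule genes ran between 0.34 and 1.68 over DT-C and between 0.47 and 2.78 over W-C, between -1.02 and 0.55 over DT-D2 and between -0.78 and 0.27 over W-D2, and between -1.12 and 0.35 over DT-D10 and between -0.97 and -0.29 over W-D10. The part of these tissues in the GST values was not tested.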

How the data were processed

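Roots of 18 samples in 6 groups were measured, 1 array each. The deposited table holds log2 intensities which, per the labels and the study's methods, the authors obtained with Affymetrix Expression Console by RMA and GeneSpring; each of the 66195 probes has a median of 0 over the 18 arrays. No column of another sample was present. limma (3.58.1, R 4.3.3) fitted 1 mean per group to all probes and all 18 arrays (12 residual degrees of freedom, eBayes prior 6.28) with Benjamini-Hochberg adjustment over all probes, and calls need an adjusted p below 0.05 and at least 2-fold. The fit was tested on simulated data with known changes. Python 3.11.15 with pandas 2.3.3 assembled the members, and matplotlib 3.10.9 drew the plots.

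Members were found by platform symbol or by the study's gene tables, of which only names and membership were used; 1 probe with a GST symbol among several was left out, and 24 of the 28 probes had a RefSeq gene (another build, so used for names, class and gene order only). The members, the gene lists and the tests were chosen with earlier results of these data known. Named singly were symbol-named probes called at least once and every table-named probe; the others named were chosen after their values were seen. The number of arrays limits precision. Alternatives were the methods' t-test, a fit of only the arrays compared, a replicate block, centring each array on its median, quantile normalization, eBayes with trend and robust settings, no fold limit, a 1.5-fold limit, and leaving out each array.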

Additional observations from a re-analysis of the deposited data

Results flagged for a closer look

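Glyma.03G176300, the lambda GST chosen by its decrease in DT-D10/DT-C, stood out for a difference between the cultivars in the change at 10 h: the DT2008 change minus the W82 change was -1.28 ± 0.20 on the log2 scale (SE). Its values were -1.20, -1.13 and -1.09 in DT-D10 and 0.85, 0.47 and 0.66 in DT-C, and -0.44, -0.46 and -0.31 in W-D10 and -0.11, 0.07 and 0.38 in W-C. Since the DT2008 part of the difference is the value that chose the probe, it is given as a description with no test.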

How the results depend on the processing

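No value of a called GST probe changed sign under any alternative, and of the 17 calls that share no array with the comparison that chose the probe, 9 held in every setting that kept the fold limit except the methods' t-test; the other 11 calls rest on arrays used in the choice and are not counted. Symbol-named counts of calls were 3 (2 h) and 1 (10 h) in DT2008, 2 at each time in W82, and 2, 3 and 3 between the cultivars at 0, 2 and 10 h. With no fold limit they were 5 in DT2008 at 10 h, 4 in W82 at 2 h, 5 in W82 at 10 h, 6 in DT-C/W-C and 5 in DT-D10/W-D10, and with 1.5-fold 4, 4, 5, 5 and 5. The methods' t-test gave 0 after adjustment in each of these comparisons except W82 at 10 h (2), while at an unadjusted p below 0.05 it gave 4 in DT2008 at 2 h, 4 in DT2008 at 10 h, 9 in W82 at 2 h, 5 in DT-C/W-C, 6 in DT-D2/W-D2 and 7 in DT-D10/W-D10. Fitting only the arrays compared gave 2 in DT2008 at 2 h (without GSTU38), 1 in W82 at 2 h and 1 in DT-C/W-C. Quantile normalization gave 1 in DT2008 at 2 h (GSTU13, up, so that the fall of GSTU60 was lost), 1 in W82 at 2 h and 1 in DT-C/W-C (GST24, lower). Leaving out each array gave 1 to 3 in DT2008 at 2 h (1 without replicate 2 of DT-C or replicate 3 of DT-D2), 0 to 2 in W82 at 2 h (0 without replicate 1 of W-C or replicate 3 of W-D2, and 1 without replicate 2 of W-C or replicate 1 of W-D2), 1 to 3 in DT-C/W-C (1 without replicate 1 or 3 of W-C), 0 to 1 for the interaction at 2 h (GSTU1 at -1.73 without replicate 1 of W-D2) and 0 to 2 at 10 h (GSTU30 at -1.17 and GSTU41 at -1.69 without replicate 2 of DT-C). The 1 call in W82 at 2 h without replicate 1 of W-D2 fell on neither probe of GSTU41, so it was absent from the main fit. The causes were not tested. Replicate numbers did not pair the samples (median correlation of deviations -0.02 over 45 same-numbered pairs, with 3 of 18 arrays correlating best with their own number), and with a replicate block the counts were 3, 1, 2, 2, 2, 3 and 3, and 0 for both interactions.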
